A study of Mus musculus with 6 samples.

Results

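The PI3K-AKT pathway carries survival and growth signals from antigen, costimulatory and cytokine receptors of T cells. PI3K adds a phosphate to a membrane lipid to give PIP3, AKT is drawn to PIP3 through its PH domain and activated there, and active AKT keeps FOXO factors out of the nucleus and, by relieving the TSC brake on RHEB, raises mTORC1 activity. Several proteins act as brakes on this route by holding back the kinase, removing the lipid signal or keeping AKT off the membrane. Described here are 9 genes of the pathway. They are the brakes *Phlda3*, *Pik3ip1*, *Inpp4b*, *Inpp5d* and *Tsc1*, the kinases *Akt1* and *Akt2*, and the PI3K subunits *Pik3cd* and *Pik3r1*. They were taken by symbol from 25351 genes with a symbol and, for splicing, they held 205 of 65785 listed events. The genes were chosen by name with normalized counts and inclusion levels of these same libraries already known, so their differences between conditions are a description. The fits over all genes and events hold them too, and how many passed is stated once beside the share of all features, with no p-value and no weight given to it.

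The study removed CD2BP2/U5-52K, a protein of the spliceosomal U5 snRNP, from T cells. CD4+ T cells were sorted from spleen and peripheral lymph nodes of young adult male mice. The cKO condition has 3 libraries of genotype U5-52Kf/f CD4-Cretg, called KO_7.8, KO_9.10 and, last, KO_11.12. CD4-Cre is active from the stage at which thymocytes carry both CD4 and CD8, so the deletion precedes the sorted cells and reaches the CD8 lineage too. The Control condition has 3 libraries, of which CTRL_1.2 and also CTRL_3.4 are U5-52Kwt/f CD4-Cretg. The remaining one, CTRL_5.6, is U5-52Kf/f without Cre, so Cre and genotype differ inside Control. The digits in the library names are not explained in the sources used here, and the spread between libraries is the only measure of error.

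Reads in genes ranged from 56995121 to 82286366 per library. *Cd2bp2*, the targeted gene, had a mean normalized count of 832 in cKO and 2613 in Control, or 31.8% of the Control level. Summed normalized counts of 6 CD4+ T cell markers lay between 249504 and 312151. KO_7.8 stood apart with a summed count of 16306 for 8 myeloid markers, against 2218 to 4613 in the other libraries. Log2 fold changes of the 9 genes are given with and without it, as are those of some other pathway genes. Splicing values carry no library names, so KO_7.8 was not left out of them by name, but each value was left out in turn. Its 8 cell cycle genes summed to 30737, against 18070 to 19811 elsewhere. Summed counts of 7 B cell markers were 9044 to 12012 in Control and 4301 to 8060 in cKO, those of 4 NK cell markers 2246 to 2955 and 3250 to 4843, and those of 2 CD8 genes 710 to 1571 and 614 to 916. In bulk RNA, fewer cells of a type and less RNA per cell cannot be told apart.

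*Phlda3* had the largest difference between conditions among the 9 genes and was higher in cKO, while *Pik3ip1* and *Inpp4b* were lower in each cKO library than in each Control library. Inclusion differed by at least 10 percentage points in 5 events of *Pik3ip1* and *Inpp4b*, all of which concern 2 stretches of sequence. They are printed here because the inclusion levels given further on refer to them. They were read from GENCODE M21 transcripts on GRCm38, plus strand, 5′ to 3′. Capitals mark the bases present in only a fraction of the transcripts, and 20 bases of the adjoining exon sequence stand on each side in lower case.
Pik3ip1 exon 3 extension: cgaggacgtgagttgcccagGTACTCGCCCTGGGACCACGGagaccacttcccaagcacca
Inpp4b cassette exon: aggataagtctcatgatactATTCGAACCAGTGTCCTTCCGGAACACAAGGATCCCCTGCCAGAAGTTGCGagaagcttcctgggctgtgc
The *Pik3ip1* stretch is the last 21 bases of the longer form of exon 3, at chr11:3332229-3332249, and is present in 2 of 10 annotated transcripts, of which Pik3ip1-205 carries it in its coding sequence. The stretch itself begins with GT, the letters with which nearly all introns begin, and the shorter form of the exon ends directly before them. The *Inpp4b* stretch is a whole exon of 51 bases at chr8:81844456-81844506, present in 10 of 15 annotated transcripts and in the coding sequence of 6 protein-coding ones. It is exon 7 of 23 in Inpp4b-206. Both lengths are multiples of 3. The annotated coding sequences of Pik3ip1-205, which is incomplete at its 3′ end, and Inpp4b-206 hold 0 in-frame stop codons before their ends whether the stretch is kept or taken out.

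*Phlda3*, on chr1:135766119-135769136, encodes a small protein made almost only of a PH domain, which competes with AKT for membrane lipids and is a known target of p53. It had 584 normalized counts in CTRL_1.2, then 658 in CTRL_3.4 and 525 in CTRL_5.6. It had 6101 in KO_7.8, then 5972 in KO_9.10 and finally 7418 in KO_11.12. Values are listed in this library order from here on. The conditions were far apart, and the lowest cKO library lay well above the highest Control library. The mean rose from 589 ± 66.7 to 6497 ± 801 (SD, n = 3 each), an 11.03-fold difference with a log2 fold change of 3.46 ± 0.13 (SE, on log2 of the normalized count plus 1). It ranked 6 by log2 fold change among the 11001 genes tested. Without KO_7.8 the log2 fold change was 3.502.

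*Pik3ip1*, on chr11:3330401-3342971, encodes a transmembrane protein that binds the catalytic subunit of PI3K and lowers its activity. The gene is known for high expression in resting T cells. Control libraries held 17802, 18797 and 22042 normalized counts. The cKO libraries held 11541, 13185 and 17772. Each cKO library was below each Control library, but KO_11.12 was separated from CTRL_1.2 by a small gap only. The mean was 19547 ± 2217 in Control and 14166 ± 3229 in cKO, which is 72.5% of the Control level, with a log2 fold change of -0.48 ± 0.17 (SE). Without KO_7.8, the lowest library, the log2 fold change was -0.35.

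Memory and effector markers were higher in cKO in sum, while the sums of naive T cell markers overlapped between conditions. The summed counts of 9 memory and effector genes were 79670 to 104488 in Control and 140299 to 152942 in cKO, with 4 of 8 tested genes higher and 0 lower at an adjusted p under 0.05 in limma. Those of 9 naive T cell genes were 345264 to 473096 in Control and 343299 to 418614 in cKO, with 1 gene higher and 0 lower. Their part in the *Pik3ip1* difference was not tested.

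**Figure D1:**
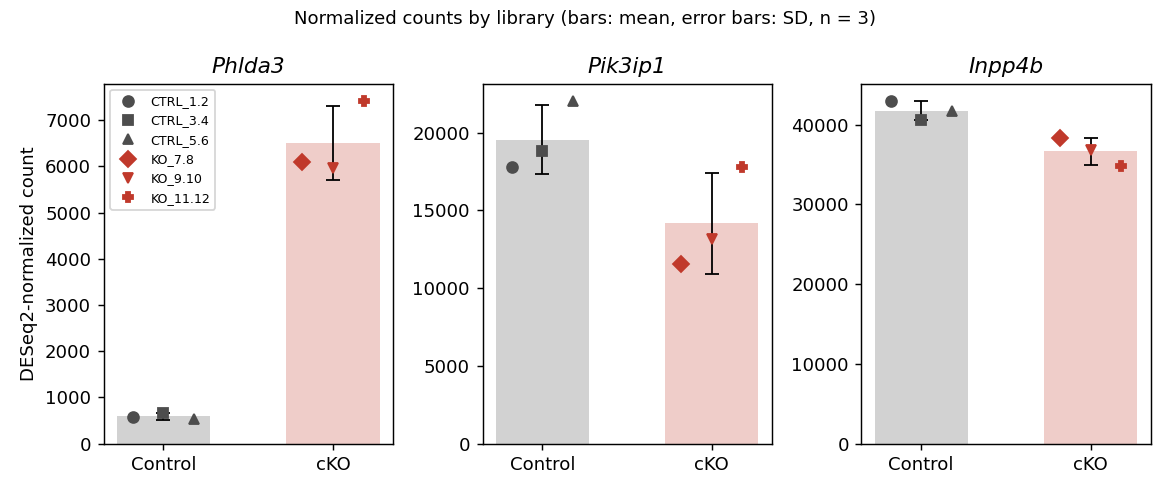
DESeq2-normalized counts of Phlda3, Pik3ip1 and Inpp4b in each library (points, 1 symbol per library), with the mean (bars) and SD (error bars) of 3 Control and 3 cKO libraries, axes starting at 0. Phlda3 was at 525 to 658 in Control and 5972 to 7418 in cKO, while Pik3ip1 was at 17802 or more in Control and at 11541, 13185 and 17772 in cKO, and Inpp4b at 40622 or more in Control and 38303 or less in cKO.

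*Inpp4b* and *Inpp5d* encode lipid phosphatases. INPP5D, also called SHIP1, removes a phosphate from PIP3, and INPP4B removes a further phosphate from the product. *Inpp4b* (chr8:81342556-82127914) had 42981, 40622 and 41669 normalized counts in the Control libraries. It had 38303, 36785 and 34850 in the cKO libraries, all of them under the Control range. The difference was small against a narrow spread, 41758 ± 1182 against 36646 ± 1730, or 87.8% of the Control level and a log2 fold change of -0.19 ± 0.08 (SE), or -0.22 without KO_7.8. *Inpp5d* (chr1:87620312-87720507) had 15338, 18036 and 11244 counts in Control. In cKO it had 12860, 15429 and 16278. The cKO libraries lay inside the Control range, with the extremes on both sides held by Control libraries, and the log2 fold change was 0.02 ± 0.18 (SE), or 0.12 without KO_7.8.

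*Tsc1* (chr2:28641228-28691167) encodes the partner that stabilises TSC2 in the complex that switches RHEB off. Its normalized counts were 2097, 2236 and 1308 in Control. They were 911, 1825 and 1806 in cKO. The lowest library of each condition, KO_7.8 and CTRL_5.6, stood away from the other two, and the conditions overlapped. The log2 fold change was -0.34 ± 0.32 (SE) with all libraries and -0.01 without KO_7.8. Summed counts of 4 erythroid markers were 3076 in KO_7.8 and 4063 in CTRL_5.6, against 171 to 484 in the other libraries. CTRL_5.6 is also the Control library without Cre. The part of either in the *Tsc1* values was not tested.

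The kinases and the PI3K subunits overlapped between conditions throughout. *Akt1* (chr12:112653821-112674884) was the steadiest, with 1390, 1500 and 1400 normalized counts in Control. Its cKO counts were 1608, 1430 and 1448. Its log2 fold change was 0.06 ± 0.10 (SE), or 0.01 without KO_7.8. *Akt2* (chr7:27591552-27640826), the second AKT isoform, had 11588, 13212 and 11476 counts in Control. It had 11245, 11688 and 14128 in cKO, which spans the Control range, with a log2 fold change of 0.03 ± 0.12 (SE), or 0.09 without KO_7.8.

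*Pik3cd* (chr4:149649168-149702571) encodes the delta catalytic subunit, the main class I catalytic subunit of lymphocytes. Its counts were 20044, 23076 and 19814 in Control. They were 17218, 22604 and 25693 in cKO, so that the lowest and the highest library were both cKO. The log2 fold change was 0.04 ± 0.16 (SE). *Pik3r1* (chr13:101680563-101768217) encodes the main regulatory subunit, which stabilises the catalytic subunit and restrains it until a receptor is engaged. It had 15624, 18447 and 14740 counts in Control. In cKO it had 12626, 17213 and 17555. KO_7.8 was again the lowest library, and the log2 fold change was -0.05 ± 0.15 (SE). Without KO_7.8 the log2 fold changes were 0.20 for *Pik3cd* and 0.10 for *Pik3r1*, so that the latter changed sign.

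**Figure D2:**
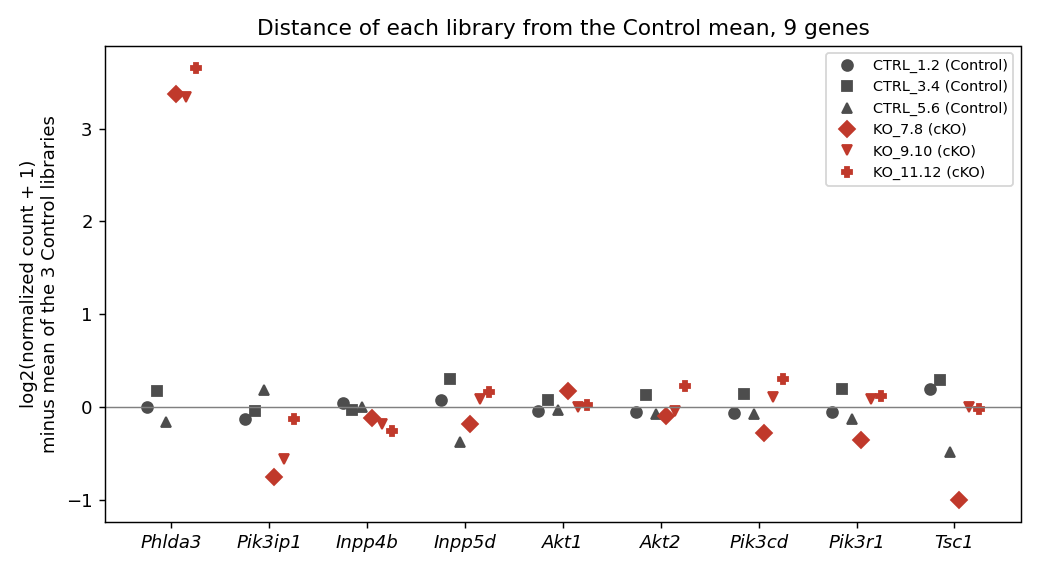
Distance of each library from the mean of the 3 Control libraries, as log2 of the normalized count plus 1, for the 9 genes (1 symbol per library; grey Control, red cKO). Phlda3 lay 3.35 to 3.66 above the Control mean in the cKO libraries, and KO_7.8 was the lowest library for Pik3ip1, Akt2, Pik3cd, Pik3r1 and Tsc1.

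All 9 genes passed the minimum mean normalized count of 100 in either condition. At an adjusted p under 0.05 in limma, 0.673% of the 11001 tested genes were higher and 0.3% lower in cKO. Of the 9 genes, 1 was past that threshold, *Phlda3*. Conditions did not overlap in the higher direction for 12.6% and in the lower direction for 11.5% of tested genes, and among the 9 genes for 1 (*Phlda3*) and for 2 (*Pik3ip1* and *Inpp4b*). These counts use the values that were known when the genes were chosen, and nothing is read from them. The median log2 fold change was 0.02 for the 9 genes and 0.01 for all tested genes.

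Levels of different genes were compared as the normalized count per kilobase of annotated exon, a length that takes in all isoforms. In Control, *Pik3ip1* had the highest level at 4576 ± 519 per kilobase (SD, n = 3), followed by *Pik3cd* at 3352 ± 291 and *Inpp4b* at 3196 ± 90.5, which overlapped with each other. *Inpp5d* at 1956 ± 450, *Akt2* at 1696 ± 136 and *Pik3r1* at 1614 ± 192 formed a middle group in which neighbours overlapped. *Phlda3* at 378 ± 42.8 and *Akt1* at 349 ± 14.9 were low and overlapped, and *Tsc1* was lowest at 159 ± 42.3. *Akt2* was thus the more abundant of the 2 AKT transcripts in every library.

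In cKO, *Phlda3* had the highest mean of the 9 genes at 4167 ± 514 per kilobase. *Pik3cd* at 3489 ± 685, *Pik3ip1* at 3316 ± 756 and *Inpp4b* at 2805 ± 132 came next, and each of these 4 genes overlapped with its neighbour in the order. The order of the other genes was that of Control, with *Inpp5d* at 1954 ± 234, *Akt2* at 1732 ± 218, *Pik3r1* at 1567 ± 273, *Akt1* at 365 ± 23.9 and *Tsc1* at 128 ± 44.1. Without KO_7.8 the order of the 9 cKO means was the same, from 4294 for *Phlda3* to 153 for *Tsc1*.

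**Figure D3:**
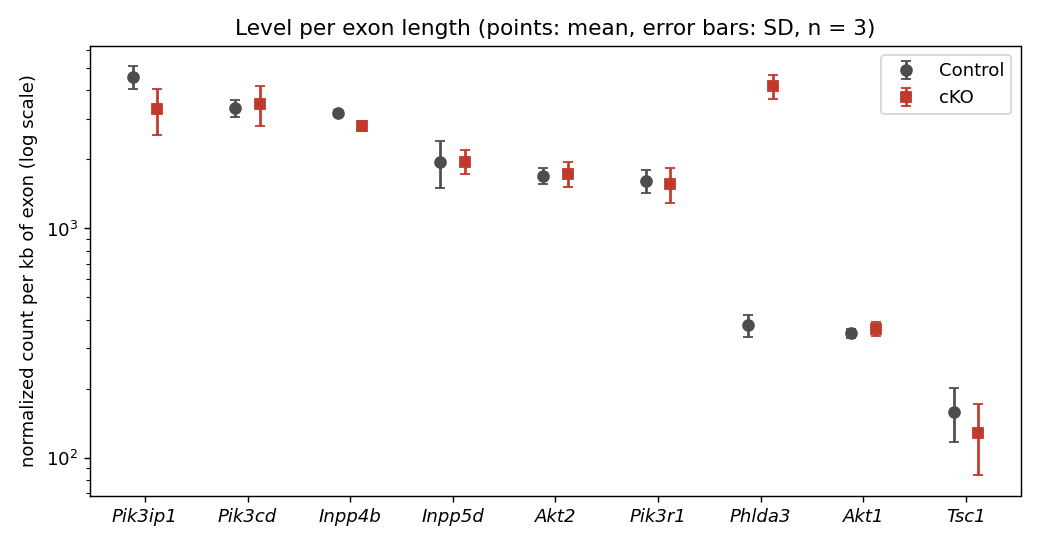
Normalized count per kilobase of annotated exon on a log axis for the 9 genes, ordered by the Control mean (points: mean of 3 libraries; error bars: SD; circles Control, squares cKO). Phlda3 moved from 378 to 4167 per kilobase, while the Control and cKO points of the other 8 genes lay close together.

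The genes whose log2 values over the 6 libraries were most like those of *Phlda3* were *Bax* (Pearson r = 0.9995), *Plk2* (r = 0.999), *Fam216a* (r = 0.996), *Kremen2* (r = 0.995) and *Drc1* (r = 0.995). *Bax* encodes a pore-forming protein of mitochondrial apoptosis. The sizes of the differences were unlike, since their log2 fold changes ran from 0.35 for *Fam216a* to 2.88 for *Drc1*. The libraries formed a Control and a cKO cluster on *Phlda3*, and r was not computed within a condition. Most like *Pik3ip1* were *Dph1* (r = 0.992), *Xrn2* (r = 0.991), *Lmbr1l* (r = 0.988), *Ppp1r13b* (r = 0.987) and *Rcc1l* (r = 0.986), all with small negative log2 fold changes between -0.45 and -0.12. Without KO_7.8, r over the other 5 libraries was 0.996 or more for the first group of genes and 0.979 to 0.989 for the second. These are descriptions, since all r values rest on the same few libraries and 2 conditions.

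Splicing was read from inclusion levels, the length-corrected percentage of reads that hold the alternative stretch, with 3 values per condition that the tables do not tie to library names. Of the 205 events of the 9 genes, 172 were tested, those with 20 or more reads on average in each condition. *Phlda3* and *Akt1* had 0 listed events. *Inpp4b* had 106 of the 172, since its many annotated exons were paired in many ways. An event was called at an FDR under 0.01 and a change of at least 10 percentage points. By that rule 0.495% of skipped exons, 0.25% of mutually exclusive exon pairs, 0.584% of alternative 3′ splice sites, 1.08% of alternative 5′ splice sites and 0.181% of retained introns were called over all genes. Among the 9 genes 1 of 94 skipped exons, 3 of 62 exon pairs, 0 of 11 alternative 3′ sites, 1 of 3 alternative 5′ sites and 0 of 2 retained introns were called. As with the expression counts, nothing is read from these shares.

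The largest change in *Pik3ip1* was at the alternative 5′ splice site of exon 3 printed above. The longer form made up 4.48%, 3.799% and 4.06% in Control. In cKO it made up 17.0%, 12.7% and 13.5%. The cKO values were all higher than the Control values, with means of 4.12% ± 0.345 and 14.4% ± 2.28 (SD, n = 3) and a difference of 10.3 points. The longer form was supported by 74, 71 and 64 reads in Control and by 154, 183 and 260 in cKO, against 1382, 1576 and 1324 and then 658, 1099 and 1458 reads for the shorter form. The shorter form was thus the main product in both conditions. Without the highest cKO value, 17.0%, the difference was 9.01 points and the event was not called.

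The other *Pik3ip1* events moved little. A 113-base exon at chr11:3335719-3335831 was included at 5.22%, 4.31% and 4.64% in Control. It was at 1.74%, 2.84% and 2.67% in cKO, lower in each value by a mean of 2.31 points. The remaining 3 skipped exon events lay at 97.5% inclusion or above in each value.

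For *Inpp4b*, the 51-base exon printed above is described in the event with the most reads of the 21 tested events that hold it. Its inclusion was 95.2%, 95.2% and 93.2% in Control. It was 84.2%, 85.3% and 82.3% in cKO. The 3 cKO values lay below the Control values, with means of 94.5% ± 1.19 and 83.9% ± 1.54 (SD, n = 3) and a difference of -10.6 points. Reads that skipped the exon numbered 64, 72 and 66 in Control and 172, 226 and 238 in cKO, beside 1206 or more that included it in each value.

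The 3 exon pairs of *Inpp4b* that differed by at least 10 points all contain this exon and share reads with that event, so they are not separate observations. Set against the next exon, chr8:81856692-81856771, it fell from between 90.3% and 94.7% to between 76.4% and 79.1%, a difference of -15.1 points in both pairings. Set against the exon before it, chr8:81770808-81770924, the share of that earlier exon was 11.4%, 11.4% and 10.6% in Control. It was 25.2%, 24.3% and 27.4% in cKO, a difference of 14.5 points. These pair shares are not inclusion levels of the neighbouring exons. In its skipped exon event with most reads, the earlier exon had a mean inclusion of 99.9% in Control and 99.7% in cKO. The next exon had 99.7% and 99.5%. Of the 106 tested *Inpp4b* events, 94 differed by under 5 points.

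**Figure D4:**
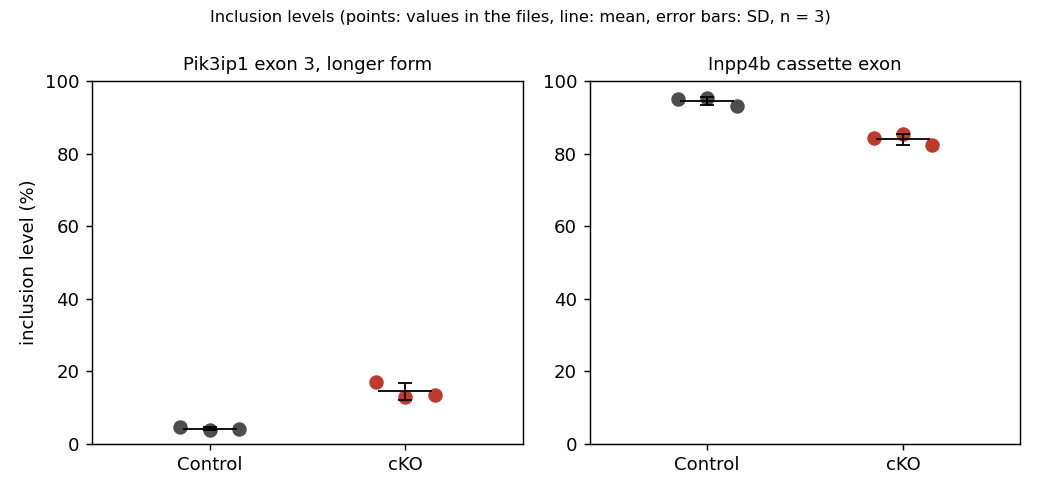
Inclusion level in percent, on axes from 0 to 100, of the longer form of Pik3ip1 exon 3 (left) and of the Inpp4b cassette exon (right), with the 3 values per condition as points, the mean as a line and the SD as error bars. The Pik3ip1 extension was near 4% in Control and between 12.7% and 17.0% in cKO, and the Inpp4b exon was above 93% in Control and at 82.3% to 85.3% in cKO.

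In the remaining genes, changes stayed under 10 points. In *Inpp5d* the largest change was at an alternative 3′ splice site 16 bases apart, at chr1:87715261-87715313. The longer form was at 37.4%, 28.5% and 19.7% in Control, a wide spread. It was at 19.997%, 17.8% and 19.9% in cKO, and the conditions overlapped around a difference of -9.29 points. Retention of the neighbouring intron, which uses the same skipping reads, was at 76.1%, 76.0% and 65.7% in Control. It was at 61.9%, 63.8% and 67.4% in cKO, with a difference of -8.19 points and again an overlap.

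*Pik3r1* had a single listed event, a 714-base exon at chr13:101757326-101758039. It was included at 100% in the 3 Control values, with 0 skipping reads. It was at 96.2%, 96.7% and 97.8% in cKO, with 2 or 3 skipping reads per value, so that the difference of -3.07 points rests on very few reads. The largest change in *Tsc1*, -5.28 points at an alternative 3′ splice site of chr2:28675643-28675767, rested on 0 to 3 reads of the longer form per value, and the conditions overlapped. The largest change was 4.81 points in *Pik3cd*, where 23 of 23 tested events differed by under 5 points. It was 3.25 points in *Akt2*, where 12 of 12 did, and both were exon pairs with overlapping conditions.

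Around these 9 genes, 90 other genes of the pathway in 8 lists were examined in the same limma fit, of which 84 were tested. At an adjusted p under 0.05, 1 was higher and 0 were lower, against 0.673% and 0.3% of all tested genes. Their median log2 fold change was 0.02, close to that of all genes at 0.01. The 1 gene was *Rheb*, the small GTPase that activates mTORC1 and that TSC switches off. It rose from 9326, 10214 and 10198 normalized counts in Control to 14798, 14442 and 15687 in cKO. The conditions were well apart, with a log2 fold change of 0.60 ± 0.08 (SE) and an adjusted p of 0.0292 in limma. The call held without KO_7.8 (adjusted p = 0.0446 in limma) and was lost when any other single library was left out, with adjusted p between 0.0845 and 0.172 in limma. Leaving out any of those libraries also lowered the calls over all genes from 107 to between 26 and 36. The log2 fold change of *Rheb* stayed between 0.55 and 0.62 in all alternatives. With all libraries kept, *Rheb* was called under each of them, with adjusted p between 0.0223 and 0.0316 in limma and 0.0241 in edgeR.

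In the list of *Rheb*, which holds 13 tested genes of the TSC and mTORC1 branch, the median log2 fold change was 0.02. *Nprl2*, a subunit of the GATOR1 brake on mTORC1, had 2174, 2181 and 2334 counts in Control. It had 3766, 3138 and 3188 in cKO, without overlap, at a log2 fold change of 0.59 ± 0.11 (SE) and an adjusted p of 0.0630 in limma. Of 8 tested stress-induced mTOR brakes 0 passed, with a median of 0.00. *Sesn2*, a sestrin that acts through the GATOR complexes, had 1042, 1088 and 768 counts in Control and 2443, 1727 and 1747 in cKO. Its log2 fold change was 1.03 ± 0.20 (SE), with an adjusted p of 0.0734 in limma, and 0.86 without KO_7.8. *Ddit4*, an inhibitor of mTORC1 under stress, overlapped between conditions at a log2 fold change of 0.66 ± 0.32 (SE), or 0.95 without KO_7.8.

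Among 5 tested genes of other AKT brakes 0 passed, with a median of 0.01. *Trib3*, a pseudokinase that binds AKT, had 741, 676 and 814 counts in Control. It had 368, 364 and 468 in cKO, without overlap, at a log2 fold change of -0.90 ± 0.16 (SE) and an adjusted p of 0.0629 in limma. *Them4* overlapped between conditions at -0.30 ± 0.18. The 11 tested PI3K subunits had a median of 0.09 and 0 calls. *Pik3r3*, a regulatory subunit, was at 399 ± 29.5 counts in Control (SD, n = 3). It was at 263 ± 40.9 in cKO, and the log2 fold change was -0.61 ± 0.18 (SE) with an adjusted p of 0.176 in limma. Without KO_7.8 that of *Pik3r3* was -0.48. *Pik3c2a*, a class II PI3K, was at -0.37 ± 0.15, or -0.21 without KO_7.8.

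The 12 tested lipid and AKT phosphatases had a median of 0.14 and 0 calls, with *Ppp2r1a* and *Ppp2cb*, the scaffold and a catalytic subunit of phosphatase PP2A, at log2 fold changes of 0.18 ± 0.08 and 0.29 ± 0.15 (SE). The 12 tested genes of AKT, its kinases and the mTOR complexes had a median of -0.01 and 0 calls. *Prr5l*, a subunit associated with mTORC2, was at 459, 364 and 442 counts in Control and at 1297, 606 and 664 in cKO, with KO_7.8 far above the others, a log2 fold change of 0.94 ± 0.30 (SE) and an adjusted p of 0.197 in limma. Without KO_7.8 its log2 fold change was 0.60 ± 0.16 (SE). *Rictor*, which defines mTORC2, was at -0.23 ± 0.14, or -0.08 without KO_7.8.

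The 13 FOXO factors and FOXO targets had a median of -0.17 and 0 calls, with *Il7r*, the interleukin-7 receptor alpha chain, at 0.27 ± 0.12 and *Tcf7*, a transcription factor of naive T cells, at -0.28 ± 0.13 (SE). The 10 tested upstream receptors and adaptors had a median of -0.05 and 0 calls. *Cd28*, the main costimulatory receptor, was at 27108 ± 728 counts in Control (SD, n = 3) against 21705 ± 2839 in cKO, and the adaptor *Trat1* was at 11311 ± 1835 and 8630 ± 671. Their log2 fold changes were -0.33 ± 0.11 and -0.38 ± 0.13 (SE), each with an adjusted p of 0.226 in limma. Without KO_7.8 that of *Cd28* was -0.22. The list medians without KO_7.8 lay between -0.02 and 0.15, that of the FOXO list being -0.01, and *Rheb* was again the 1 pathway gene past the threshold.

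**Figure D5:**
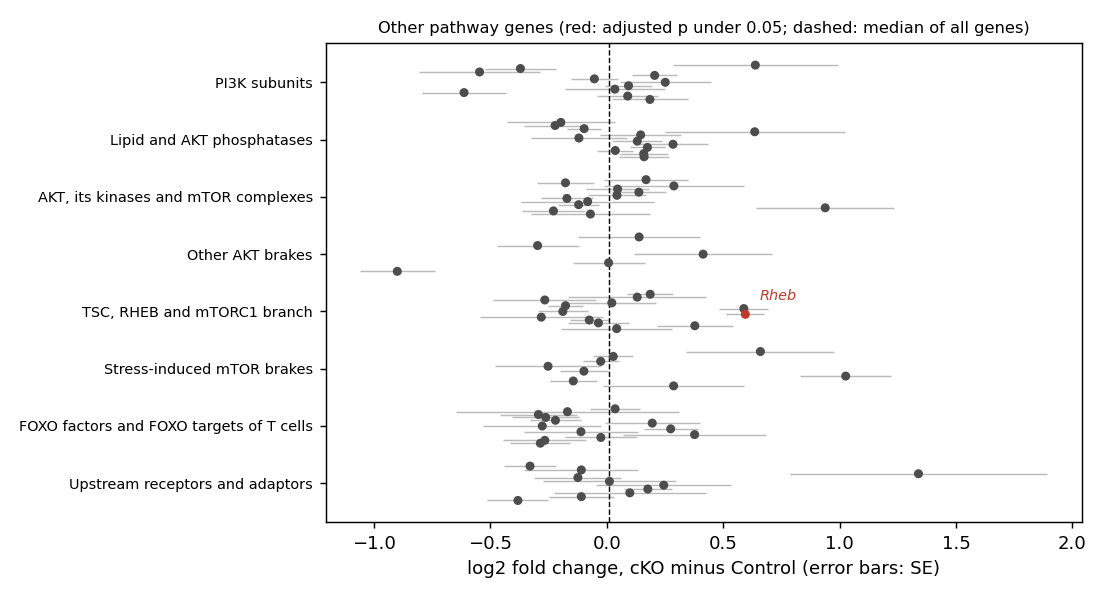
Log2 fold change (cKO minus Control) with its SE for the 84 tested pathway genes in 8 lists, 1 point per gene, with the median of all tested genes as a dashed line. Rheb, in red, is the gene at an adjusted p under 0.05, and the list medians lie between -0.17 and 0.14.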

How the data were processed

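The members and lists were chosen with earlier results of these data known. The authors used cutadapt for adapters, STAR for alignment to GRCm38 and featureCounts for gene counts, which they scaled by DESeq2 size factors. The deposited expression values are this normalized signal. With 1 factor for each library, all values gave whole reads to within 0.01. The annotation release used for counting is not stated, though the study names an Ensembl release for its transcript list. For each event, the rMATS tables deposited hold counts of including and skipping reads over junctions and exon bodies. Their first sample was taken as Control and their second as cKO, after the study's definition of the difference. The authors' own fold changes and p-values were not used.

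The limma 3.58.1 test (R 4.3.3) used log2(normalized count + 1), a variance trend and Benjamini-Hochberg adjustment over 11001 genes, those that have a symbol and average 100 or more in Control or cKO. This scale understates changes of low genes. Whole reads were also tested with edgeR 4.0.16 and DESeq2 1.42.0. Events were tested with a quasi-binomial model, with a dispersion moderated by limma over events with 5 or more reads on average for the rarer form, a floor of 1 and adjustment within the class. Reads of overlapping genes cannot be separated; exons of *Gm12592* cover 2.13% of the *Pik3ip1* exon length. GENCODE M21 gave positions, lengths and sequences, and 97.4% of gene IDs in the skipped exon table had the same version there. Named genes were the 9 members, pathway genes past the threshold or else the 2 of smallest p per list, the 5 genes most like *Phlda3* and *Pik3ip1*, and events called or of largest change. Alternatives changed the pseudocount, scaling, filter, tool, libraries and splicing thresholds.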

Additional observations from a re-analysis of the deposited data

How the results depend on the processing

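No paired analysis was possible because the library names share no replicate numbers between conditions. Under the 6 of 12 alternatives that kept all libraries, the log2 fold changes of the 9 genes moved by less than 1 SD between libraries. The changed filter on the mean count cannot move a log2 fold change. The bound is also loose where the SD exceeds the log2 fold change, as for *Tsc1* (0.50 against -0.34) and *Inpp5d* (0.28 against 0.02). For the 6 that left out a library this bound holds by construction, as the SD comes from the same libraries. Without 1 library each, the log2 fold changes ranged from 3.36 to 3.54 for *Phlda3*, -0.66 to -0.35 for *Pik3ip1*, -0.22 to -0.15 for *Inpp4b*, -0.17 to 0.17 for *Inpp5d*, 0.01 to 0.10 for *Akt1*, -0.07 to 0.09 for *Akt2*, -0.09 to 0.20 for *Pik3cd*, -0.14 to 0.10 for *Pik3r1* and -0.59 to -0.01 for *Tsc1*. The signs of *Inpp5d*, *Akt2*, *Pik3cd* and *Pik3r1* turned when single libraries were left out. With all libraries, *Inpp5d* was at -0.04 under quantile normalization and -0.01 in edgeR and DESeq2, and *Akt2* at -0.03 under quantile normalization. *Tsc1* was further below Control than *Pik3ip1* without CTRL_5.6 (-0.59 against -0.39) and without KO_9.10 (-0.51 against -0.44).

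Of all genes, 107 were called by limma and 926 by DESeq2 (488 higher, 438 lower). Leaving out 1 library gave 26 to 130 calls, with 130 without KO_7.8 and 26 to 36 without any other library. Of the pathway genes 1 was called by limma, 7 by DESeq2 (4 higher, 3 lower) and 0 to 1 without a library. *Rheb* was among the 7 (adjusted p = 1.2e-11 in DESeq2), and the others are not named here. The counts of calls given for each list are those of limma only.

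Against 260 called splicing events, 391 were called at an FDR under 0.05, 67 at a change of at least 20 points, 1150 by no overlap and at least 10 points with no model, and 445 with a prior dispersion over all events, an alternative chosen after seeing the data. Of the 5 called events of the 9 genes, 0 reached 20 points. Leaving out 1 value gave changes of 9.01 to 11.2 points for the *Pik3ip1* extension and of -11.3 to -9.78 points for the *Inpp4b* exon, so that each missed 10 points once. The *Pik3ip1* extension did so without its highest cKO value, 17.0%, and the *Inpp4b* exon without its lowest cKO value, 82.3%. No names tie the values to libraries, but read numbers ran in the same order. In cKO, reads that include a 74-base *Tsc1* exon numbered 33, 116 and 113, in the order of the values. Normalized counts of *Tsc1* were 911 in KO_7.8, then 1825 and 1806 in the other cKO libraries. If the order is shared, the 17.0% value, listed first, is that of KO_7.8, and the 82.3% value, listed last, is not. The order itself was not tested. The cause of the differences between tools and priors was not tested.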
